A study of Mus musculus with 14 samples.

Results

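Chemokines and their receptors were examined in bulk RNA-Seq of mouse esophagus. Members were taken by symbol: every gene named as a numbered Ccl, Cxcl, Cx3cl or Xcl ligand, or as a numbered Ccr, Cxcr, Cx3cr, Xcr or Ackr receptor. The rule found 61 genes among the 55291 counted, 39 ligands (24 CC, 13 CXC, and Cx3cl1 and Xcl1) and 22 receptors (10 CC, 6 CXC, Cx3cr1, Xcr1 and 4 atypical). Each was compared between the layers of the esophagus and between aged and young mice.

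The tissue came from 9 C57BL/6 mice with no treatment or engineered allele named, called aged (18 months or more) or young (4 months or less). Peeled epithelium was sequenced from 5 aged mice (O1, O2, O3, OF5 and OM8) and 4 young mice (Y1, Y3, YF5 and YM4). Stroma came from 5 of the same mice, the aged O1, O2 and O3 and the young Y1 and Y3. The remaining 4 mice, whose codes are written differently, gave epithelium alone. Both layers are mixtures of cell types separated by hand, so for every gene a change in the number of cells of one type and a change in RNA per cell cannot be told apart.

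Chemokines are small secreted proteins that direct the movement of leukocytes along a gradient. They are named by the spacing of their first cysteines (CC, CXC, CX3C and XC), and most act on G protein-coupled receptors of the matching class. Some, such as Ccl21 and Cxcl13, are made constitutively and organise lymphocyte and dendritic cell traffic, while others, such as Cxcl1 or Cxcl10, are induced in inflammation. Atypical receptors (Ackr1 to Ackr4) bind chemokines without the usual G protein signal and clear, transport or scavenge them.

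The libraries differed in depth and in content. Total counts ran from 8217516 to 21867101 per library, and counts of protein-coding genes from 6665526 to 11067320 in the 10 libraries of the mice with both layers but from 1042394 to 1433857 in the 4 libraries of OF5, OM8, YF5 and YM4, in which the ribosomal RNA locus CT010467.1 took 63.92% to 73.89% of all counts. Values below are normalized counts, that is CPM on the TMM-adjusted library size. The lowest level that 3 counts can give was 0.0872 to 0.175 normalized counts in the 10 deep libraries and 0.707 to 1.25 in the 4 shallow ones, and covers counting error only. The labelled layers were checked against summed markers: 5 keratinocyte genes summed to 16400 to 52700 normalized counts in epithelium and 43.5 to 425 in stroma, and 4 skeletal muscle genes to 8.96 to 1040 and 28000 to 54400. Other lists overlapped between the layers. The 5 fibroblast genes summed to 229 to 521 in epithelium and 360 to 860 in stroma. The 4 pericyte and smooth muscle genes summed to 295 to 750 and 300 to 1820. Levels in peeled epithelium are therefore not those of keratinocytes alone, and the part of these other cells in the members was not tested. The stromal library of O3 stood apart, with 6 B and plasma cell genes at 993 normalized counts against 15.1 to 112 in the other 4 stromal libraries, and 5 leukocyte genes at 134 against 14.6 to 34.5.

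Chemokine and receptor transcripts were a small share of either layer and a larger one in stroma. All members together took 104.6 to 210.6 CPM of the protein-coding counts in the 9 epithelial libraries and 291.0 to 691.7 in the 5 stromal libraries. The groups did not overlap on this sum, and the highest value was that of O3 stroma. The mean level reached 1 normalized count for 14 of the 61 members in epithelium and for 28 in stroma.

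**Figure D1:**
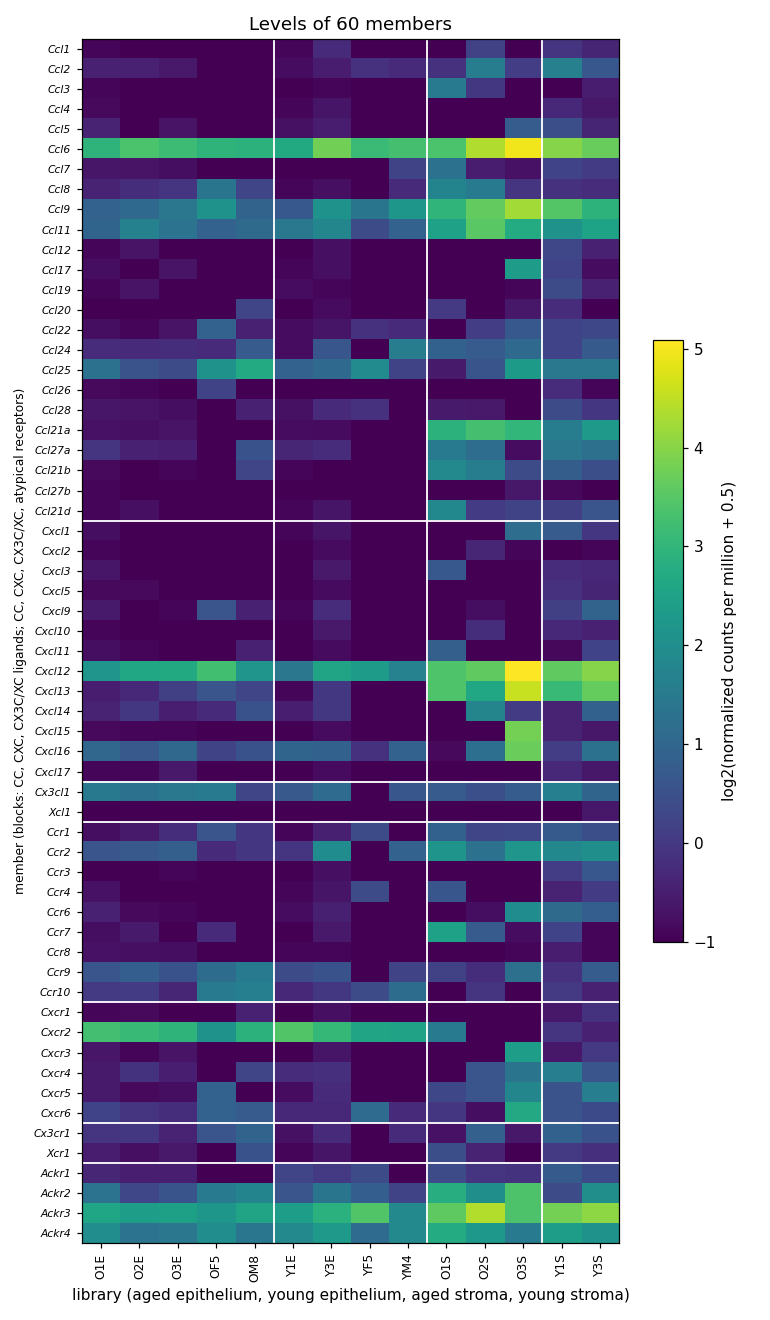
Level of each of 60 members (rows, in blocks of ligands and then receptors) in each of the 14 libraries (columns), as log2 of normalized counts (CPM) plus 0.5. Ccl6, Cxcl12, Cxcl13, Ackr3 and Ccl9 are bright across the stromal libraries. In the 9 epithelial libraries Cxcr2 (3.79 to 10.3 normalized counts), Ccl6 (6.02 to 13.3) and Ackr3 (3.12 to 10.4) are bright. The O3 stromal library alone is bright for Cxcl15 (13.6 normalized counts).

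Epithelium was compared with stroma over all 14 libraries by the quasi-likelihood test of edgeR, and p-values were adjusted by Benjamini-Hochberg over the 16791 genes that passed a filter on low counts. Of the 61 members, 28 passed the filter and 16 were called at an adjusted p under 0.05: Cxcr2 was higher in epithelium, and 15 members were higher in stroma. Over all genes tested, 56.2% were called, 26.1% higher in epithelium and 30.1% higher in stroma. A member can pass the filter through stroma alone, so the count of members called is a description and not a test of the family. Without a filter all 61 members were tested and 25 were called, 24 of them higher in stroma, against 14026 of 49574 genes called.

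Among the 28 members tested, 8 had no overlap between the 9 epithelial and 5 stromal libraries, where 31.3% of all genes tested had none. When the layers were paired by mouse, in the 5 mice that gave both, 11 of the 16 calls were kept. In that fit 45 members were tested and these 11 called, against 8689 of 22771 genes. The calls of Ackr2 (blocked adjusted p = 0.055), Ccl27a (0.107), Ccr1 (0.0823), Ccr2 (0.0686) and Cxcr4 (0.326) were lost there, by the same edgeR test. Without the O3 stromal library all 16 remained and Ackr4 was added.

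**Figure D2:**
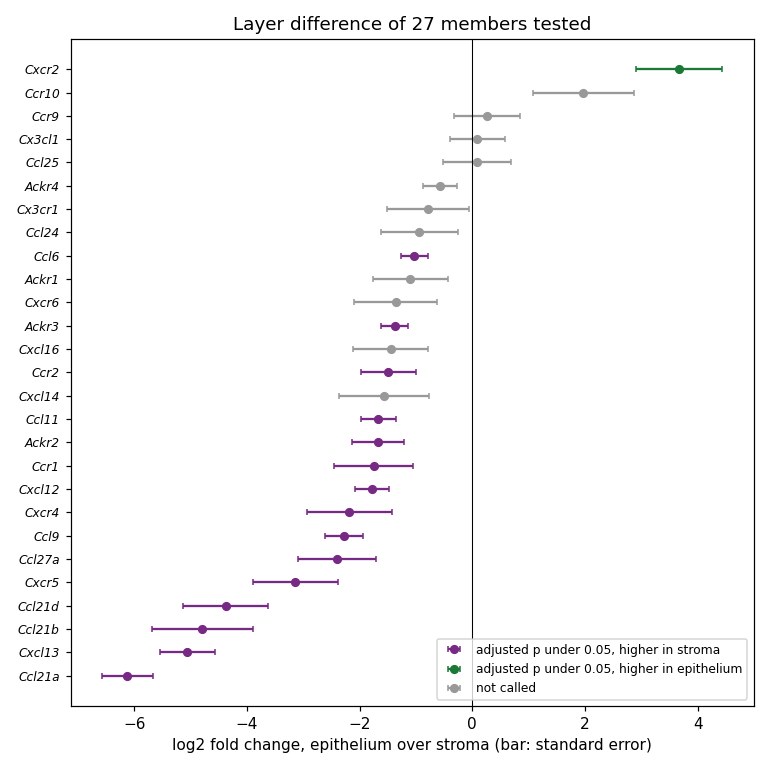
The log2 fold change of epithelium over stroma (x axis) for 27 of the members tested, with bars for the standard error. Cxcr2 lies at 3.67 on the epithelial side, the 15 members called on the stromal side run from -1.03 (Ccl6) to -6.12 (Ccl21a), and the 11 members in grey were not called.

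The 250 bases upstream of the RefSeq start (GRCm38.p6) are shown for the member higher in epithelium, Cxcr2, and for the 4 members with the largest stromal difference among those whose mean log2 CPM was not below 0, Ccl21a, Cxcl13, Ccl9 and Cxcl12. They are shown because these genes carry the layer difference in both directions. Capitals mark a match on either strand to any of 5 motifs, and matches of different motifs can overlap. The TATA box was searched as TATAAA. The GC box was searched as GGGCGG. The kappaB-like motif was 3 G and 2 C with 5 bases of any kind between. The AP-1-like motif was searched as TGANTCA. The GAS-like motif, known from interferon-responsive genes, was TTC and GAA with 3 bases of any kind between. A match is a string of letters and was not tested for binding.
Cxcr2 (chr1:74153744-74153993, + strand): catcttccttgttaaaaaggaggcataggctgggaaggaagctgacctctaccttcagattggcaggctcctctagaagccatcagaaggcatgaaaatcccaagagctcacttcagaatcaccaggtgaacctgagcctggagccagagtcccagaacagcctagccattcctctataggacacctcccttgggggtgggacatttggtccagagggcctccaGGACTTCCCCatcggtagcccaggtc
Ccl21a (chr4:42773992-42774241, - strand): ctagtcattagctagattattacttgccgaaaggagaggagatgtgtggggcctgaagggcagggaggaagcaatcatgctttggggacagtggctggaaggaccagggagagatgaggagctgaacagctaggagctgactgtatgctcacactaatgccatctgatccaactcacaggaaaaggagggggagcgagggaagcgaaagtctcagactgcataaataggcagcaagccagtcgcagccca
Cxcl13 (chr5:95956689-95956938, + strand): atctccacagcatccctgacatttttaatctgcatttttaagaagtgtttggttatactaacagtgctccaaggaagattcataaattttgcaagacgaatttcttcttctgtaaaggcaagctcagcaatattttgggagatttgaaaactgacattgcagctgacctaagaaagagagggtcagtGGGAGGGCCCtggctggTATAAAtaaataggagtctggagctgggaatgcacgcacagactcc
Ccl9 (chr11:83578637-83578886, - strand): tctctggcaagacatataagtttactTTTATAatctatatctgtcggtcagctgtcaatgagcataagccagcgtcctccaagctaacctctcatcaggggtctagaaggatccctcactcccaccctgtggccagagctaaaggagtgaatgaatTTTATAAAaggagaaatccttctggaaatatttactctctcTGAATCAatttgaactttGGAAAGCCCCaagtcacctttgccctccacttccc
Cxcl12 (chr6:117168285-117168534, + strand): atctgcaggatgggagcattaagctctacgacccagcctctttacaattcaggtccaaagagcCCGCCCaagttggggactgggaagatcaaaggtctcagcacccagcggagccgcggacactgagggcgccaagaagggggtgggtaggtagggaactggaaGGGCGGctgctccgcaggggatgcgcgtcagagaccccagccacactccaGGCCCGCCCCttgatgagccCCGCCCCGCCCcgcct

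The 5 windows differed in base composition. The GC content was 64.4% before Cxcl12, with 14 CpG dinucleotides, and higher than in 81.6% of the 32851 promoter entries. It was 42.0% before Cxcl13 and 43.6% before Ccl9, each with 2 CpG, and 54.4% and 52.8% before Cxcr2 and Ccl21a. Cxcl12 had 5 matches to the GC box and none to the TATA box, Cxcl13 had a TATA box match from base 46 to 41 before the start, and Ccl9 had 3 TATA box matches that begin 224, 94 and 92 bases before the start, the last 2 overlapping. Cxcr2 had 1 kappaB-like match, 26 to 17 bases before the start, and Ccl21a had no match to the 5 motifs.

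Entries were found for 46 of the 61 members, and some members have several. Of the 53 entries of members, 26.4% held a TATA box match against 12.4% of all entries of the same length, and 15.1% held a GC box match against 32.7%. A kappaB-like match was in 50.9% of them against 45.8%, a GAS-like match in 5.66% against 7.02%, and an AP-1-like match in 11.3% against 6.75%. These shares are descriptions, and neighbouring chemokine genes share sequence by descent.

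Cxcr2 was the member higher in epithelium. It encodes a receptor for Cxcl1, Cxcl2, Cxcl3 and Cxcl5, known best for drawing neutrophils into tissue, and lies on chromosome 1, 74153989 to 74161246 in GRCm38. In epithelium it ran from 3.79 to 10.3 normalized counts (median 7.25), or 7.12 ± 2.04 (SD, n = 9). In stroma it was at 2.33 in O1, 0 in O2, 0 in O3, 0.464 in Y1 and 0.236 in Y3. Every epithelial library stood above every stromal library, and O1 was the highest in stroma.

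The log2 fold change of Cxcr2 was 3.67 (SE 0.77, adjusted p = 0.000611 by edgeR), a 12.8-fold difference, and 5.43 without O1 stroma. The 4 neutrophil markers of the list (Csf3r, Ly6g, Retnlg and Mmp8) summed to 0 to 1.41 normalized counts in epithelium, and Ly6g had no count in 5 of the 9, among them the 4 shallow ones. In stroma the same list summed to 0 to 7.89. The part of neutrophils, or of keratinocytes left in stroma, in the level of Cxcr2 was not tested.

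The CXC ligands of Cxcr2 taken by the symbol rule, Cxcl1, Cxcl2, Cxcl3 and Cxcl5, did not pass 0.164 normalized counts in the layer where the receptor was high. Cxcl1 ran from 0 to 0.131 normalized counts in epithelium, Cxcl2 from 0 to 0.0654, Cxcl3 from 0 to 0.164 and Cxcl5 from 0 to 0.0654, and none of the 4 passed the filter. The 4 shallow libraries had no count of any of them. In stroma Cxcl1 reached 1.76 in O3 and 1.19 in Y1, and was 0 in O1 and O2. Cxcr1, the related receptor, ran from 0 to 0.236 in epithelium and from 0 to 0.433 in stroma.

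The widest differences toward stroma were those of the constitutive lymphoid chemokines. Ccl21a (chromosome 4, 42772860 to 42773993) guides dendritic cells and T cells that carry Ccr7 and is known from lymphatic endothelium and lymph nodes. It had a maximum of 0.124 normalized counts in epithelium, where 4 of 9 libraries, the shallow ones, had none. In stroma it was at 7.06 in O1, 9.29 in O2, 7.65 in O3, 2.43 in Y1 and 4.29 in Y3. The layers were fully separated, with a log2 fold change of -6.12 (SE 0.46, adjusted p = 7.41e-10 by edgeR).

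Ccl21b and Ccl21d are copies of the same gene and followed it, with log2 fold changes of -4.79 (SE 0.90) and -4.38 (SE 0.76). Their counts cannot be separated with confidence. Of the runs of 50 bases in Ccl21b transcripts, 100% also occur in transcripts of other genes, and 71.6% of those of Ccl21a. The windows upstream of the annotated starts were aligned without gaps, at shifts of a few bases only. Those of Ccl21a and Ccl21d agree in 248 of 249 bases, and those of Ccl21a and Ccl21b in 81 of 249. Larger shifts between the annotated starts were not searched, so the second value cannot show that the upstream sequences differ. Ccl21d has no entry in the GENCODE M21 annotation used for lengths. With the 3 copies summed the log2 fold change was -5.55 (SE 0.43). Without OM8 epithelium, which held 3 counts of Ccl21b, that gene's value was -5.79, and without O1 stroma that of Ccl21d was -3.66.

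The receptor Ccr7 and the other Ccr7 ligand, Ccl19, did not pass the filter. Ccr7 was at 5.08 normalized counts in O1 stroma, 1.19 in O2, 0.0765 in O3, 0.671 in Y1 and 0.0394 in Y3, a spread in which O1 stood highest, and at most 0.345 in epithelium. Ccl19 reached 0.826 in Y1 stroma, and its counts are uncertain, since 52.0% of the 50-base runs in its transcripts also occur in pseudogenes and other copies. Markers of lymphatic endothelium moved with Ccl21a between the layers. The 4 genes Lyve1, Prox1, Flt4 and Mmrn1 summed to 45.5 to 65.7 normalized counts in stroma and 4.17 to 10 in epithelium. All 4 were called higher in stroma. Prox1 was 0 in 3 epithelial libraries (OM8, YF5 and YM4), all of them shallow, and had counts in every deep one. The part of these 4 genes in the result was not tested.

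Cxcl13, the ligand that gathers B cells carrying Cxcr5, showed the next largest difference. The gene (chromosome 5, 95956951 to 95961068) ran from 0 to 1.03 normalized counts in epithelium with a median of 0.303. In stroma it was at 10.2 in O1, 5.79 in O2, 23.3 in O3, 8.26 in Y1 and 12 in Y3. O3 was the highest and the layers did not overlap, with a log2 fold change of -5.06 (SE 0.49, adjusted p = 2.75e-08 by edgeR).

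Cxcr5, its receptor, was also called higher in stroma, at a log2 fold change of -3.14 (SE 0.76, adjusted p = 0.00155 by edgeR). Its stromal levels were 0.758 in O1, 1.03 in O2, 2.98 in O3, 0.980 in Y1 and 2.56 in Y3. In epithelium 8 of 9 libraries were at or below 0.327 and OF5 was at 1.38, above 3 of the stromal libraries. In the aged mice alone the adjusted p was 0.0744. The 6 B and plasma cell genes summed to 15.1 to 993 normalized counts in stroma and 0 to 9.30 in epithelium, with the highest value in O3, where Cxcl13 and Cxcr5 were also highest. Their part in the result was not tested.

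Cxcl12, a constitutive stromal chemokine that retains leukocytes and progenitors carrying Cxcr4, was detected in every library. The gene lies on chromosome 6, 117168535 to 117181367. It ran from 2.16 to 8.96 normalized counts in epithelium, with a median of 4.58. In stroma it was at 10.2 in O1, 11.7 in O2, 33.5 in O3, 11.7 in Y1 and 15.2 in Y3. The layers did not overlap (log2 fold change -1.78, SE 0.31, adjusted p = 5.7e-05 by edgeR), and the value was -1.34 without O3 stroma.

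Both receptors that bind Cxcl12 were called in the same direction. Ackr3, the atypical receptor that scavenges Cxcl12, ran from 3.12 to 10.4 normalized counts in epithelium (median 4.97) and was at 11.4 in O1 stroma, 20.5 in O2, 9.91 in O3, 13.6 in Y1 and 16.1 in Y3. YF5 epithelium, at 10.4, stood above O3 stroma, and all other epithelial libraries stood below every stromal library. Its log2 fold change was -1.38 (SE 0.24, adjusted p = 5.13e-05 by edgeR). Cxcr4, the signalling receptor, was lower and more scattered, at 0 in O1 stroma, 1.03 in O2, 2.03 in O3, 2.53 in Y1 and 1.02 in Y3 and at most 0.707 in epithelium. Its call (log2 fold change -2.18, SE 0.76, adjusted p = 0.0188 by edgeR) was lost without Y1 stroma (adjusted p = 0.0708) and in the aged mice alone (adjusted p = 0.26).

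Ccl6 and Ccl9 are neighbouring mouse genes of the CC class on chromosome 11 (Ccl9 at 83572919 to 83578636, Ccl6 at 83587882 to 83593087) and are known ligands of Ccr1 made by myeloid cells. Ccl6 ran from 6.02 to 13.3 normalized counts in epithelium (median 8.33). In stroma it was at 9.86 in O1, 19.9 in O2, 30.5 in O3, 15.2 in Y1 and 12.2 in Y3. Y3 epithelium, at 13.3, overlapped the stromal range, and the log2 fold change was -1.03 (SE 0.24, adjusted p = 0.00122 by edgeR). In the young mice alone the call was lost (-0.46, adjusted p = 0.251).

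Ccl9 had a wider difference. It ran from 1.10 to 4.15 normalized counts in epithelium (median 2.08) and was at 7.35 in O1 stroma, 11.8 in O2, 18.4 in O3, 10.5 in Y1 and 7.21 in Y3. The layers did not overlap (log2 fold change -2.28, SE 0.34, adjusted p = 7.8e-06 by edgeR). Ccr1 itself was low, from 0.698 to 1.34 in stroma and from 0 to 1.03 in epithelium. Its call (log2 fold change -1.75, SE 0.70, adjusted p = 0.0388 by edgeR) is the weakest of the 16: it was lost when any of 8 libraries was left out (O1, O2, Y1, Y3 or YM4 epithelium, or O1, Y1 or Y3 stroma), with adjusted p from 0.0541 to 0.0771, and in either age alone (0.26 in aged and 0.0683 in young mice). Macrophage genes moved the same way, with the 6 of the list at 46.3 to 118 normalized counts in stroma and 20.8 to 57.5 in epithelium, 5 of them called, and their part in these results was not tested.

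Ccl11, or eotaxin, attracts eosinophils through Ccr3. It was detected in every library, from 0.833 to 2.98 normalized counts in epithelium (median 1.65). In stroma it was at 5.13 in O1, 11.1 in O2, 6.20 in O3, 3.77 in Y1 and 5.24 in Y3. The layers did not overlap (log2 fold change -1.67, SE 0.31, adjusted p = 0.000126 by edgeR), and in the young mice alone the adjusted p was 0.0946. Ccl24, another Ccr3 ligand, was not called (log2 fold change -0.94, 95% interval -2.35 to 0.47). Ccr3 had counts in both young stromal libraries and none in the 3 aged ones, and was at most 0.0981 in epithelium.

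Ackr2 scavenges inflammatory CC chemokines, Ccl11 and Ccl2 among them. It ran from 0.692 to 2.83 normalized counts in epithelium (median 1.25) and was at 6.48 in O1 stroma, 3.62 in O2, 9.91 in O3, 0.826 in Y1 and 3.51 in Y3. Y1 lay within the epithelial range while the other 4 stromal libraries lay above it. The log2 fold change was -1.68 (SE 0.46, adjusted p = 0.00406 by edgeR), and in the young mice alone it was -0.56 with an adjusted p of 0.496. Ackr1 (log2 fold change -1.10, 95% interval -2.49 to 0.29) and Ackr4 (-0.57, 95% interval -1.20 to 0.06) were not called, and 25.69% of the exon length of Ackr1 is shared with Cadm3 on the same strand.

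Ccr2, the receptor that brings monocytes into tissue, was called at a log2 fold change of -1.49 (SE 0.49, adjusted p = 0.0141 by edgeR). It was at 3.91 normalized counts in O1 stroma, 1.97 in O2, 3.98 in O3, 3.10 in Y1 and 3.59 in Y3, and ran from 0 to 3.40 in epithelium, with Y3 the highest. In the young mice alone the adjusted p was 0.288. Its ligands were low: Ccl2 ran from 0.408 to 2.63 in stroma and from 0 to 0.417 in epithelium, Ccl7 from 0.115 to 1.93 and from 0 to 0.692, and Ccl12 had counts in stroma in the young mice alone. None of the 3 passed the filter.

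Ccl27a, a ligand of Ccr10 known from skin keratinocytes, was higher in stroma in these libraries (log2 fold change -2.40, SE 0.69, adjusted p = 0.00595 by edgeR), a call lost in the aged mice alone (adjusted p = 0.175). It was at 2.33 normalized counts in O1 stroma, 1.77 in O2, 0.0765 in O3, 2.17 in Y1 and 1.89 in Y3, and ran from 0 to 0.943 in epithelium. Of the stromal libraries 4 lay above every epithelial library and O3 lay among the epithelial ones. Of the 50-base runs in its transcripts, 45.0% also occur in other genes, Ccl27b among them, so its counts are uncertain. Ccr10 ran from 0.290 to 2.59 in epithelium and from 0 to 0.516 in stroma and was not called by edgeR (log2 fold change 1.97, 95% interval 0.09 to 3.86, adjusted p = 0.069). In epithelium the 4 shallow libraries held its highest levels, 0.833 to 2.59 against 0.290 to 0.545 in the deep ones.

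**Figure D3:**
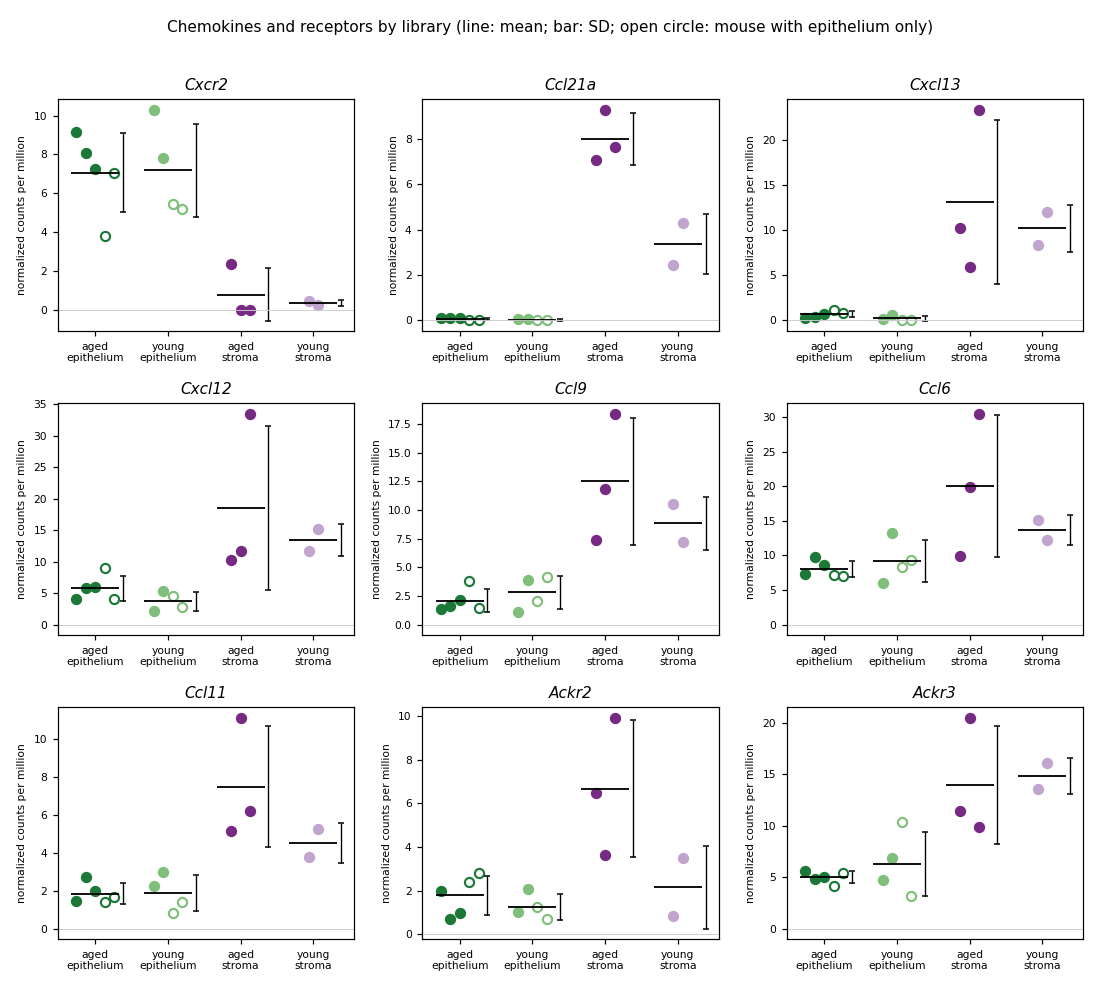
Normalized counts (CPM) of 9 members in each library, by layer and age, with the mean as a line, the SD as a bar and open circles for the mice with epithelium only. Cxcr2 is at 3.79 or above in every epithelial library and at 2.33 or below in stroma, while Ccl21a does not pass 0.124 in epithelium and is at 2.43 or above in stroma.

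Several ligand and receptor pairs showed no call between the layers. Cxcl16, a membrane-bound ligand, and its receptor Cxcr6 had log2 fold changes of -1.45 (95% interval -2.84 to -0.07) and -1.36 (-2.90 to 0.18), with adjusted p of 0.0685 and 0.124 by edgeR. Both values rested on O3 stroma, at 12.4 and 5.93 normalized counts against at most 1.93 and 0.980 in the other stromal libraries, and without it they were 0.14 and 0.15. The membrane-bound Cx3cl1 (0.09, -0.93 to 1.11) and its receptor Cx3cr1 (-0.78, -2.31 to 0.75), and Ccl25 (0.08, -1.17 to 1.33) and its receptor Ccr9 (0.26, -0.95 to 1.47), were not called either. The constitutive ligand Cxcl14 (-1.56, -3.22 to 0.11) was not called. Each of these 7 intervals holds a log2 difference of 1 in at least 1 direction. Genes on the other strand share 18.27% of the exon length of Cxcl16 and 19.04% of that of Ccr9. The strand setting of the counts is not given.

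The 33 members that did not pass the filter each reached 3 counts in some library. They were the CC ligands Ccl1, Ccl2, Ccl3, Ccl4, Ccl5, Ccl7, Ccl8, Ccl12, Ccl17, Ccl19, Ccl20, Ccl22, Ccl26, Ccl27b and Ccl28, the CXC ligands Cxcl1, Cxcl2, Cxcl3, Cxcl5, Cxcl9, Cxcl10, Cxcl11, Cxcl15 and Cxcl17, and Xcl1. The receptors were Ccr3, Ccr4, Ccr6, Ccr7, Ccr8, Cxcr1, Cxcr3 and Xcr1. Xcl1 had 4 counts in the whole series, all of them in Y3 stroma.

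One stromal library held most counts of some of these genes. Cxcl15, a chemokine known from lung and mucosal epithelium, had 355 of its 370 counts in O3 stroma. Cxcr3, the receptor for Cxcl9, Cxcl10 and Cxcl11 on activated T cells, had 127 of 156 counts there, and Ccl17, a Ccr4 ligand, had 121 of 146. The 6 T cell genes of the marker list summed to 11.4 normalized counts in O3 stroma against 1.27 to 5.54 in the other stromal libraries and 0.213 to 1.18 in epithelium, and their part in this was not tested.

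Ranked by mean level per kilobase of exon, Ccl6 stood first in epithelium at 4.76 normalized counts per kilobase, ahead of Cxcr2 (2.33), Ccl11 (1.70), Ackr3 (1.66) and Ccl8 (0.943). In stroma the order by the same measure was Cxcl13 (10.3), Ccl6 (9.77), Ccl21a (7.06), Ccl11 (5.80) and Ackr3 (4.27). The place of Ccl21a depends on how reads were assigned among its copies, and its copy Ccl21b stood at 4.22, close to Ackr3. The ranges of neighbours in the stromal order overlap throughout: Cxcl13 ran from 5.04 to 20.3 per kilobase and Ackr3 from 2.96 to 6.14. Ccl8, a monocyte-attracting CC ligand of short transcript, ran from 0 to 2.07 normalized counts in epithelium, with OF5 the highest, and its place in the epithelial order rested on the shallow libraries: in the 5 deep ones its mean was 0.475 per kilobase, below Ccl9 (0.664), Cxcl12 (0.572) and Ackr4 (0.561). In stroma Ccl8 was at 2.86 in O1, 2.34 in O2, 0.459 in O3, 0.413 in Y1 and 0.355 in Y3.

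Age was next compared within each layer. In epithelium, where the form of the mouse code was a term of the fit, 16 members passed the filter and none was called, against 0.0126% of the 15859 genes tested (0.00631% in each direction, edgeR). No member had an unadjusted p under 0.05, against 3.21% of all genes, and DESeq2 called none, with 9 members left without an adjusted p. Of the 16, Ccr9 alone had no overlap between aged and young, where 1.27% of all genes had none. Its counts are uncertain, since 19.04% of its exon length is shared with genes on the other strand and the strand setting is not given.

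The 5 members with the smallest unadjusted p in epithelium are given as values. Cx3cr1 had a log2 fold change of aged over young of 1.19 (95% interval -0.18 to 2.56), Cxcl12 of 0.54 (-0.10 to 1.19), Cx3cl1 of 0.69 (-0.17 to 1.54), Ccr9 of 0.69 (-0.28 to 1.66) and Ccr2 of -0.80 (-1.99 to 0.39). Each had an adjusted p of 1.

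Ccr9, the gut-homing receptor, was at 1.02, 1.27, 0.952, 1.72 and 2.36 normalized counts in aged epithelium and at 0.815, 0.949, 0 and 0.692 in young epithelium. Cx3cl1, or fractalkine, was at 2.24, 1.97, 2.19, 2.41 and 0.707 in aged and 1.13, 1.70, 0 and 1.04 in young epithelium, with OM8 within the young range. Cx3cr1, its receptor on monocytes and macrophages, was at 0.436, 0.485, 0.248, 1.03 and 1.41 in aged and 0.106, 0.327, 0 and 0.346 in young epithelium. The 5 aged values of each gene are those of O1, O2, O3, OF5 and OM8 and the 4 young values those of Y1, Y3, YF5 and YM4, and the highest aged levels of Ccr9 and Cx3cr1 are those of the shallow libraries OF5 and OM8.

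Cxcl12 was at 4.04, 5.79, 6.00, 8.96 and 4.01 normalized counts in the same aged and at 2.16, 5.40, 4.58 and 2.77 in the same young epithelial libraries, and the ages overlapped. Ccr2 was at 1.02, 1.12, 1.28, 0.345 and 0.471 against 0.460, 3.40, 0 and 1.38, and its direction turned without Y3 (0.72). Within the 5 mice with both layers the values were 0.83 for Cx3cr1, 0.46 for Cxcl12, 0.58 for Cx3cl1, 0.29 for Ccr9 and -0.78 for Ccr2. Within the 4 mice with epithelium only, Cxcl12 was at 0.82 and the other 4 were not tested there.

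For the members that led in epithelium the intervals were narrower. Cxcr2 had a log2 fold change of -0.10 (95% interval -0.52 to 0.32), Ccl6 of -0.24 (-0.71 to 0.23) and Ackr3 of -0.27 (-0.81 to 0.26). These 3 intervals lie within a log2 change of 1 in either direction.

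In stroma 44 members passed the filter and none was called by edgeR, as for the 21323 genes tested (0% called), and DESeq2 called no member. Of these members, Ccr3 and Ccl21a had an unadjusted p under 0.05, against 3.64% of all genes. Aged and young did not overlap for 8 members, 4 in each direction, where 20.6% of all genes did not. The intervals were wide: that of Cxcl13, for example, ran from -0.88 to 1.60.

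The stromal libraries of the ages also differed in how many genes were detected. Counts were present for 20115 to 25497 genes in the 3 aged libraries and for 34224 and 41308 in the young ones, at like total counts, and for 36 to 42 members against 58 and 59. The part of this in the results below was not tested.

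Ccl21a was at 7.06, 9.29 and 7.65 normalized counts in aged stroma (O1, O2 and O3) and at 2.43 and 4.29 in young stroma (Y1 and Y3). The 3 aged libraries lay above both young ones. The gene had a log2 fold change of 1.24 (95% interval 0.06 to 2.42, unadjusted p = 0.0407, adjusted p = 1 by edgeR), 0.87 without Y1 and 1.69 without Y3. With the 3 copies of the gene summed the value was 1.13. Lymphatic endothelial markers summed to 59.9 to 65.7 in aged and to 45.5 and 49.2 in young stroma, but did not all go the same way. Lyve1, Flt4 and Mmrn1 were higher in aged stroma without overlap. Prox1 was lower without overlap, at 3.03, 3.41 and 0.574 in aged and 4.39 and 4.14 in young stroma. None of the 4 was called, and their part in the difference was not tested.

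Ackr2 was at 6.48, 3.62 and 9.91 normalized counts in aged and at 0.826 and 3.51 in young stroma, without overlap, and its log2 fold change was 1.60 (95% interval -0.12 to 3.33), 0.90 without Y1 and 2.97 without Y3. Ccl8 was at 2.86, 2.34 and 0.459 against 0.413 and 0.355, also without overlap (2.27, -1.08 to 5.61). O3, which stood apart in other genes, held the highest Ackr2 and the lowest aged Ccl8.

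Ccr3, the eotaxin receptor of eosinophils, had no count in the 3 aged stromal libraries and 0.568 and 1.06 normalized counts in Y1 and Y3. Pooled, the young libraries held 0.849 normalized counts from 38 counts, at least 19.1-fold higher than the 0.0444 that 3 counts over the 3 aged libraries would give. Its unadjusted p was 0.0233 and its adjusted p 1 by edgeR. Cxcl9, an interferon-induced ligand of Cxcr3, was at 0, 0.0822 and 0 in aged and at 0.619 and 1.42 in young stroma. Another 5 members, Ccl4, Ccl12, Cxcl5, Cxcl17 and Cxcr1, also had no count in aged stroma and 3 or more counts in both young libraries. With Ccr3 that is 6 of the 51 members with 3 or more counts in both young libraries, or 11.8%, against 10.9% of the 25526 genes of that kind.

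**Figure D4:**
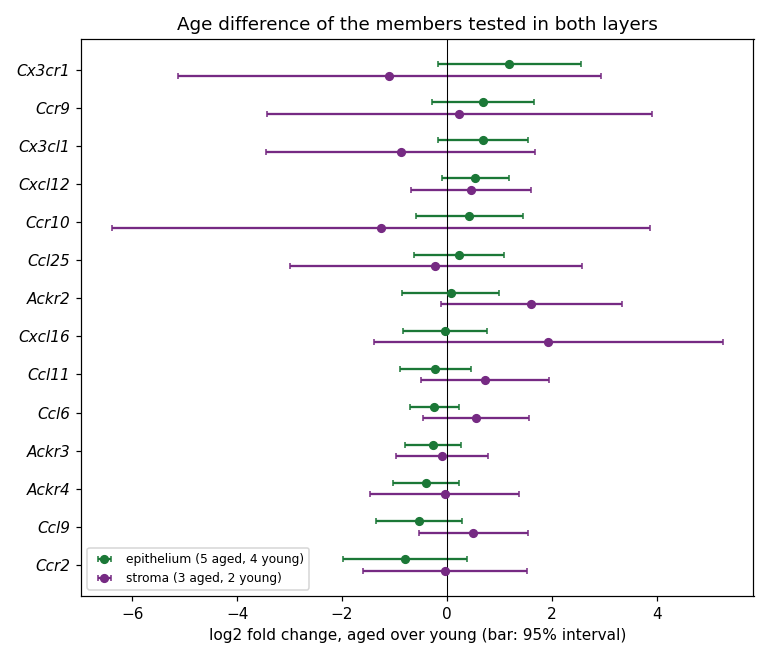
The log2 fold change of aged over young for 14 members tested in both layers, in epithelium (green) and stroma (purple), with bars for the 95% interval. Every interval includes 0, and the stromal intervals are wider, as for Ccr10 (-6.39 to 3.87).

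Whether age effects differed between the layers was tested as an interaction in the 10 libraries of the 5 mice with both. Of 45 members tested none was called, as for the 22771 genes tested (0% called by edgeR), and DESeq2 called no member. No member had an unadjusted p under 0.05, against 4.3% of all genes. The smallest unadjusted p were those of Ackr2 (0.0812), Ccl7 (0.0825), Cx3cl1 (0.105), Ccr3 (0.112) and Ccl11 (0.136).

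The log2 age effect in epithelium minus that in stroma was -1.94 (95% interval -4.17 to 0.28) for Ackr2, 1.47 (-0.36 to 3.31) for Cx3cl1 and -1.07 (-2.53 to 0.39) for Ccl11. No fitted value is given for Ccl7 and Ccr3, since all libraries of one group were at 0 for each: Ccl7 in Y1 and Y3 epithelium, and Ccr3 in aged stroma. Ccl7 was at 1.93, 0.205 and 0.115 normalized counts in aged stroma and at 0.671 and 0.552 in young stroma. With mouse as a block no member was called either, and Ackr2 was at -2.18 (SE 0.91, adjusted p = 1 by edgeR).

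Other genes of the pathway differed between the layers in both directions. Of 23 listed, 21 were tested, 5 were called higher in epithelium and 12 higher in stroma, with 4 not called. Over all genes tested, 26.1% were called higher in epithelium and 30.1% higher in stroma, and these counts are a description. The ligands outside the symbol rule were split: Pf4 and Ppbp, chemokines stored in platelets, were higher in stroma (log2 fold changes -1.72, SE 0.36, and -4.97, SE 0.60), and Mif, a cytokine that also binds Cxcr2 and Cxcr4, was higher in epithelium (1.74, SE 0.30). The 5 platelet and erythrocyte genes summed to 109 to 250 normalized counts in stroma and 5.05 to 33.1 in epithelium. Hemoglobin genes made up most of this sum, as in O3 stroma, with Hba-a1 at 130 and Hbb-bs at 102. The platelet gene Itga2b was not called between the layers (log2 fold change -0.21, 95% interval -0.89 to 0.46), and Gp9 did not pass the filter. The part of platelets in the values of Pf4 and Ppbp was not tested.

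Mif ran from 7.54 to 22.9 normalized counts in epithelium (median 18.8) and was at 6.71 in O1 stroma, 9.12 in O2, 2.68 in O3, 3.72 in Y1 and 3.70 in Y3, where only OM8 epithelium, at 7.54, overlapped the stromal range. Among genes downstream of the receptors, the inhibitory G protein subunit Gnai3 was higher in epithelium (2.62, SE 0.19), as were Plcb3 (1.62, SE 0.19), Grk2 (1.22, SE 0.19) and Grk3 (0.73, SE 0.31). The leukocyte signalling genes Dock2 (-2.56, SE 0.37), Pik3r5 (-2.05, SE 0.46), Pik3cg (-2.14, SE 0.56) and Rac2 (-3.31, SE 0.82) were higher in stroma, with Arrb1, Arrb2 and Gnai2. Each of these had an adjusted p under 0.05 by edgeR, and 3 of the 5 leukocyte genes were themselves called higher in stroma, with the 5 summing to 14.6 to 134 normalized counts against 5.45 to 18.9 in epithelium. With age none of the listed genes was called by edgeR in epithelium (20 tested), in stroma (23 tested) or in the interaction (23 tested). An unadjusted p under 0.05 was held by 3, 0 and 1 of them, against 3.21%, 3.64% and 4.3% of all genes.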

How the data were processed

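The authors extracted total RNA from peeled epithelium and from stroma, enriched mRNA with oligo(dT) beads and sequenced 14 Illumina libraries. The deposited values are gene-level read counts, made by the authors with Rsubread and featureCounts on GRCm38.p6; the annotation release, strand and multimapping settings are not given in the sources used here. Counts of libraries were used as deposited. Genes were kept by filterByExpr (minimum count 10), normalized by TMM and tested by edgeR 4.0.16 (R 4.3.3) with the quasi-likelihood test and Benjamini-Hochberg adjustment over all genes kept, at a threshold of 0.05. Layers were compared over all 14 libraries, age in epithelium with a term for the 2 kinds of mouse code, age in stroma without a covariate, and the interaction in the 10 libraries of 5 mice. DESeq2 1.42.0, other filters and scalings, left-out libraries and blocks were alternatives. The scripts were tested on simulated data. One member is counted in the totals but not reported here.

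The members, marker lists and tests were chosen with earlier results of these data known. Every member called between the layers was named, with values per library for those of largest difference (mean log2 CPM not below 0) and for the 5 highest per kilobase in each layer, and for age and the interaction the 5 members with the smallest unadjusted p; other values were chosen after they were seen. Gene positions and exon lengths are from GENCODE M21 (GRCm38), and upstream sequences from RefSeq. Layers of one mouse were paired by animal; the correlations of their deviations from group means were 0.009 to 0.103. Replicates are separate mice by code. Floors of 3 counts cover counting error only.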

Additional observations from a re-analysis of the deposited data

Results flagged for a closer look

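In 4 of 46 groups tested among the members named, 1 library stood far from the rest; by chance about 1 in 20 groups would be flagged. Ccl21b in epithelium was at 0.707 normalized counts in OM8, from 3 counts, against 0 to 0.0581 in the other 8 libraries. Cxcr5 in epithelium was at 1.38 in OF5 against 0 to 0.327 in the others. Ccl27a in stroma was at 0.0765 in O3 against 1.77 to 2.33. Cx3cl1 in aged epithelium was at 0.707 in OM8 against 1.97 to 2.41. OM8 and OF5 are shallow libraries, and O3 stroma is the library with the high B and plasma cell genes; the part of either in these values was not tested.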

How the results depend on the processing

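Between the layers 16 members were called. The count was 25 with no filter on low counts, 1 of 1 tested with at least 10 counts in every sample, 10 against a fold change of 2, and 14 to 19 when 1 library was left out. It was 11 with mouse as a replicate block and 14 in the same 5 mice unpaired, 12 in aged and 18 in young mice alone (11 of them shared), and 17 with DESeq2, where 15 were shared, Ccr10 and Cxcl16 were added and Cxcr2 had no adjusted p. It was 16 with upper quartile scaling, with age as a covariate (15 shared) and without the ribosomal RNA, repeated and mitochondrial loci, and 14 with the Ccl21 copies summed, an alternative chosen after seeing the data. All genes called were 14026 of 49574 with no filter and 4316 of 6711 with at least 10 counts in every sample. Against a fold change of 2 they were 4885 of 16791, and with DESeq2 10018 of 16791. With the mouse block they were 8689 of 22771, and unpaired 9400 of 16713. In aged mice alone they were 6758 of 16714 and in young mice alone 8613 of 19253. With 1 library left out they ran from 8827 to 10093. Between the layers, direction was followed in the members called and in Cxcl16, Ccr10, Cxcl14, Ackr4 and Cxcr6. For age and the interaction it was followed in the 5 members of smallest unadjusted p in each comparison. Other members were not followed. Among those followed, directions turned for Cxcl16 (0.14 without O3 stroma, 0.11 in the mouse block, 0.08 in young mice alone) and for Cxcr6 (0.15 without O3 stroma). The direction of Ccr2 with age in epithelium also turned (0.72 without Y3). The cause was not tested. With 1 library left out Cxcl16, Cxcr6 and Ccr2 ran from -1.75 to 0.14, from -1.69 to 0.15 and from -1.47 to 0.72. For age in either layer and for the interaction the count of members called was 0 under every alternative run, left-out libraries and the mouse block included. Over all genes it ran from 0 to 36 for age in epithelium, 0 to 26 in stroma and 0 to 98 for the interaction. A replicate block on the number in the mouse code changed no member call (0 in both layers). Same-numbered mice correlated at 0.205 to 0.257 in epithelium but at -0.192 to -0.032 within a form of code. In stroma they correlated at 0.065 to 0.068. Layers of the same mouse reached only 0.009 to 0.103 by this measure, so it cannot show whether same-numbered mice share more than a number. Depth limits low members in the shallow libraries, where 3 counts are 0.707 to 1.25 normalized counts.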
